A study of Gallus gallus with 6 samples.

Results

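The comparison set K11 cells against wild type cells in DT40, a chicken B cell line derived from a bursal lymphoma and used widely for gene targeting. It used 4 of the 6 arrays of the series: the 2 titled wild type and the 2 titled K11, which GEO's labels describe as an endogenous H1 knock out. The other 2 arrays, K11-5 cells described as H1 complete null, entered the fit for its estimate of spread. They also entered the normalization, the signal filter and the choice of probe set per gene. Every culture, wild type included, was grown exponentially at 39.5 °C in RPMI1640 with fetal calf and chicken serum and with 100 nM Z-VAD-FMK, an inhibitor of caspases used here because cells without H1 die by apoptosis, per the labels. The sources used here do not give which H1 genes K11 lacks, whether it carries any added H1 gene or whether it is 1 clone. The labels do not state separate cultures for the arrays within a group, and the spread behind the p-values may therefore be technical.

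Linker histone H1 sits where DNA crosses the entry of the nucleosome and helps nucleosome arrays to fold. Vertebrate cells carry several H1 genes that can stand in for each other, and H1 is known for affecting the spacing of nucleosomes and the expression of limited sets of genes. DT40 cells keep a B cell program with a surface immunoglobulin and diversify their immunoglobulin genes in culture.

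The identity of the cells was checked with marker genes, against a background of 11.4, the signal under which 95% of the 23 bacterial and tag control probe sets lay. Of 13 B cell markers, 12 were above background in both wild type and in both K11 arrays. The exception was PAX5, a B cell identity factor, which had 7.72 and 3.76 in wild type and 30.01 and 10.8 in K11. Of 12 T cell markers, 8 were at or below background in all 6 arrays. CD3D, a T cell receptor component, was bright at 1152 and 1173 in wild type and 1169 and 865 in K11. CD247 had 36.7 and 72.5 in wild type and 51.0 and 39.3 in K11, and CD8A 11.6 and 14.3 against 25.4 and 29.7. Of 9 erythroid markers 2 were above background in both wild type arrays and 3 in both K11 arrays, and of 18 fibroblast markers 4 and 4.

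No linker histone probe set separated the groups past the threshold as the values were processed here. HIST1H111L, the bright one, had 1642 and 2185 in wild type and 5810.2 and 1597 in K11, so the groups overlapped (log2 fold change 0.68 ± 0.44 (SE), limma adjusted p = 0.418). HIST1H111R was dim, at 9.17 and 1.17 in wild type and 33.04 and 21.3 in K11 (adjusted p = 0.0597). The log2 fold change of HIST1H111R passed, as a rise, with arrays centred on their medians (adjusted p = 0.0446), on the deposited scale (0.0480), with the replicate block (0.0243) and without wild type replicate 1 (0.0488). The log2 fold change of HIST1H111L passed without K11 replicate 2 (adjusted p = 0.00222) and was -0.24 without K11 replicate 1. The oocyte form H1FOO stayed at 2.32 and 1.94 in wild type and 3.35 and 13.2 in K11 and was not tested. The HIST1H111L and HIST1H111R probe sets share a cluster number in their names and may cross-hybridise among linker histone genes. None of these probe sets checks the label, since their place relative to a deletion is unknown here.

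Of 23029 probe sets tested, 860 (3.73%) were higher and 903 (3.92%) lower in K11, at a limma adjusted p under 0.05, and 5007 had an unadjusted p under 0.05. These calls rest on limma's intensity trend in the variance: without it 0 were higher and 0 lower, where 1995 and 2199 had an unadjusted p under 0.05, and no gene named below passed. In all 1763 the K11 and wild type arrays did not overlap, which was the case in 25.2% of tested probe sets with K11 higher and in 26.8% with K11 lower. A change of at least 1 on the log2 scale was reached by 602 of the higher and 606 of the lower probe sets, and a change of at least 2 by 181 and 141. Leaving out wild type replicate 1 left 195 higher and 80 lower, leaving out wild type replicate 2 left 159 and 92, and leaving out K11 replicate 1 left 456 higher. The split of calls depended on the scaling. The trimmed mean of the deposited signals was 56.1 and 48.0 in K11 against 77.8 and 66.8 in wild type. With arrays only centred on their medians, 461 probe sets were higher, 2859 were lower, and the overall median difference was -0.25. On the deposited scale these were 309, 2615 and -0.32. Actin signal from 3' over that from 5' probe sets, a ratio which falls as RNA and labelling improve, was 9.23 and 9.31 in K11 against 8.10 and 7.15 in wild type. The same ratio for GAPDH ran the other way, with 0.832 and 0.819 in K11 against 0.892 and 0.917 in wild type, and the part of either in the results was not tested.

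Many of the genes with the largest differences went from background to clear signal or the reverse. HSPA12A, a distant relative of the HSP70 chaperones, had 1.998 and 0.86 in wild type and 158 and 119 in K11, at least 10.4-fold higher when background stands in for the dim group (adjusted p = 8.99e-05). SLC5A9, a sodium-coupled sugar transporter, had 0.757 and 0.712 against 78.6 and 110.0, at least 7.1-fold higher. IL13RA1, a receptor chain for interleukin 13, had 2.44 and 1.1 against 119 and 89.96, at least 7.89-fold higher. The wild type arrays were below background at all 3 genes and both K11 arrays well above it. SLA, an adaptor that tempers lymphocyte receptor signalling, was already on in wild type at 98.5 and 46.3 and reached 1902 and 1313, a 22.7-fold rise, and its other 2 probe sets among the largest rises moved the same way. CPNE8, a calcium-dependent phospholipid-binding protein, rose from 21.8 and 3.25 to 143 and 289. ALDH1A3, which makes retinoic acid, rose at least 8.8-fold and EGFL6, a secreted matrix protein, at least 8.65-fold, from 8.95 and 5.27 to 141 and 91.5.

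Among the falls, HINTW, a gene of the female-specific W chromosome, dropped from 4793 and 4934 to 6.5 and 17.8, a 375-fold difference (adjusted p = 1.83e-05). LOC430910, also assigned to W, had 154 and 182 in wild type and 7.96 and 11.04 in K11, at least 12.7-fold lower. MTHFS, which recycles a folate derivative, fell from 286 and 387 to 6.71 and 0.529, at least 25.1-fold lower. SLC22A5, the carnitine carrier, fell from 129 and 174 to 1.19 and 3.07, at least 11.4-fold. SNX7, a sorting nexin, fell from 159 and 118 to 0.586 and 5.42, at least 10.4-fold. FABP5, a fatty acid binding protein, fell from 206 and 122 to 8.36 and 1.12, at least 12.04-fold. BMERB1 fell from 511 and 633 to 25.7 and 17.8 at its brighter probe set and at least 11.4-fold at its dimmer one. TPD52, a protein of vesicle traffic, fell 12.9-fold, from 638 and 567 to 41.7 and 48.2. MT3, a metallothionein, and GNG12, a G protein gamma subunit, were at least 6.4-fold and 7.49-fold lower. As in every probe set called lower, both K11 arrays lay under both wild type arrays in each of these genes. TVP23A, also among the 15 largest falls, did so at the dimmer of its probe sets, while its brighter probe set had 21.3 and 26.5 in wild type and 20.5 and 22.9 in K11 and did not pass.

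**Figure D1:**
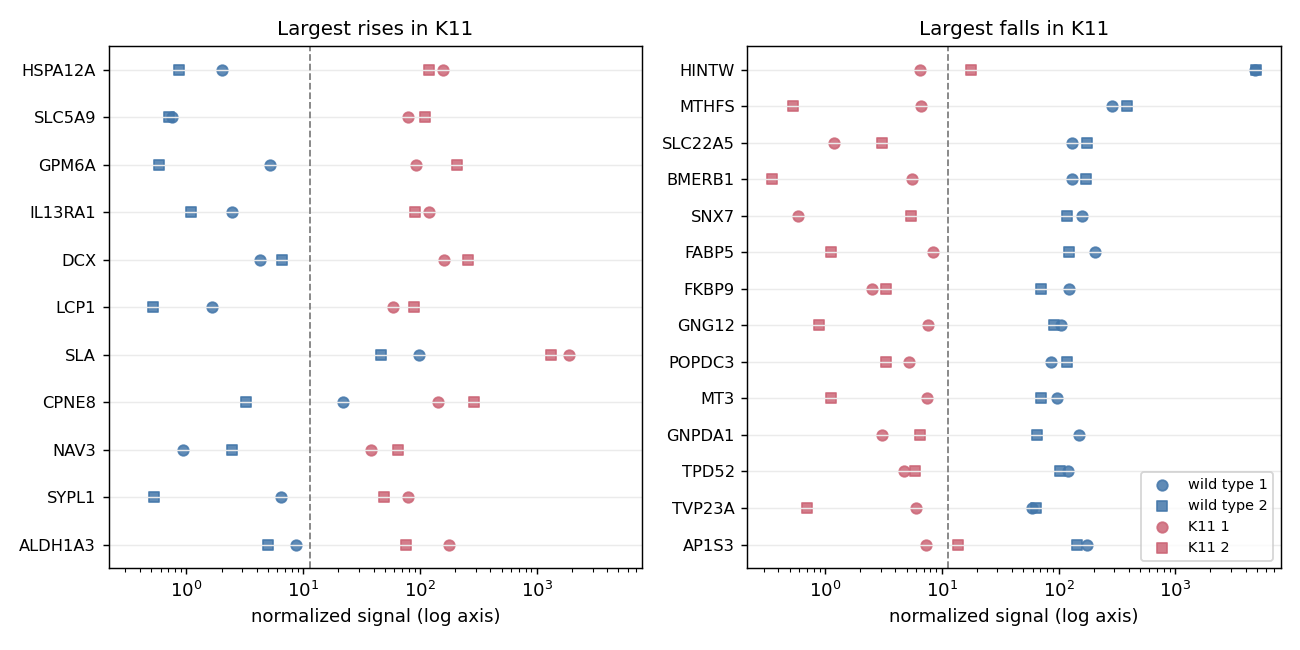
Normalized signal (log axis) of the genes with the largest rises (left) and falls (right) in K11, 1 probe set per gene, with circles and squares for replicates 1 and 2, wild type in blue and K11 in red. The dashed line is the background of 11.4. In the right panel both K11 arrays lie below it for all genes but HINTW and AP1S3, where K11 replicate 2 lies above it.

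Over all 38382 probe sets, 674 (1.76%) were above background in both K11 arrays and in neither wild type array, and 744 (1.94%) the other way round. Most of these were dim. Only 13 of the first kind reached 50 in both K11 arrays, and 24 of the second kind in both wild type arrays.

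Whole chromosomes differed between the lines, so counts with each chromosome centred are given with most of the gene groups below. Over the genes tested on a chromosome and relative to all genes, the median log2 difference was 0.46 for chromosome 9, 0.48 for 11, 0.40 for 22, 0.45 for 25 and 0.18 for 34. It was -0.37 for chromosome 2, -0.47 for 10 and -0.20 for 24. The other 21 of 29 chromosomes with at least 50 tested genes lay within 0.15 of 0. Both K11 arrays had the same direction in each of the 8 shifts, as on chromosome 2 with -0.33 and -0.41 and on chromosome 25 with 0.39 and 0.55. On chromosome 34 they had 0.10 and 0.18, so K11 replicate 1 alone lay within 0.15 of 0 there. Of 8 windows of 20 Mb along chromosome 2, the last, with 33 tested genes, had a median of -0.04. The others had medians from -0.48 to -0.33. The 5 chromosomes shifted up held 8.15% of tested genes and 29.7% of the genes higher in K11, and the 3 shifted down held 12.6% of tested genes and 45.3% of the lower genes. With every array centred on each chromosome's median, 645 probe sets were higher and 510 lower. Gene dosage was not measured, and its part in these shifts was not tested.

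**Figure D2:**
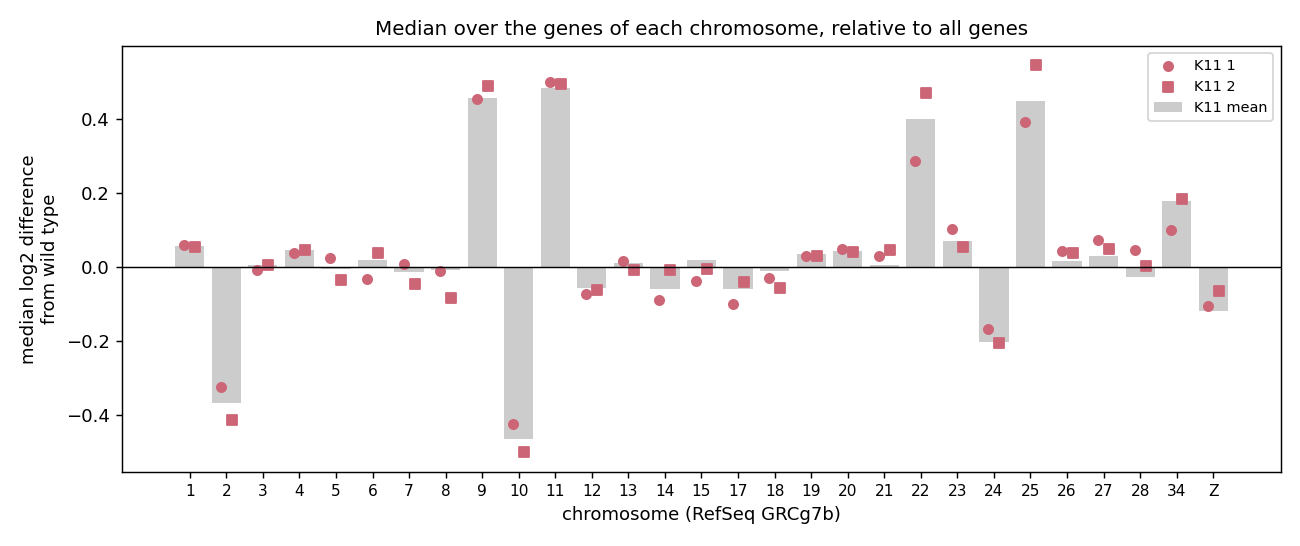
Median log2 difference from wild type over the genes of each chromosome, relative to all genes (grey bars, K11 mean; circle and square, K11 replicates 1 and 2). Chromosomes 9, 11, 22 and 25 lie near 0.4 to 0.5 in the mean, and chromosomes 2 and 10 below -0.3.

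With 1 probe set per gene, the brightest, 505 of 10030 genes (5.03%) were higher and 510 (5.08%) lower in K11, and every gene group below is read against these shares. Of the 1015 genes called, 572 had another tested probe set, which was called the same way in 226 genes and the opposite way in 2. In 105 of the 572, another tested probe set had an estimate of opposite sign, whether or not it passed.

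Many genes of protein folding in the endoplasmic reticulum (ER) were down. The ER folds secreted and membrane proteins with chaperones, disulfide isomerases and a stress pathway, the unfolded protein response, that tunes their levels. All 37 listed genes were tested, 15 fell and 2 rose, and the median log2 difference was -0.48 against 0.01 for all genes. HSPA5, the ER HSP70 chaperone, had 3809 and 3017 in wild type and 1056 and 884 in K11, a fall of 3.5-fold (log2 -1.81 ± 0.17 (SE), limma adjusted p = 0.000805). HSP90B1, the ER HSP90, fell 3.12-fold, from 3303 and 2234 to 923 and 820.4. In both genes the 2 K11 arrays lay far below the wild type arrays. HYOU1, which exchanges nucleotide on HSPA5, fell by 1.10 ± 0.21, and the J domain cochaperones DNAJB11 and DNAJB9 fell by 1.27 ± 0.28 and 0.92 ± 0.24. CRELD2, an isomerase-like protein of the ER stress response, fell by 1.16 and EIF2AK3, the PERK kinase that senses ER stress, at least 3.37-fold, from 37.8 and 49.01 to 6.61 and 9.24. DERL1 and DERL3, which export misfolded proteins for degradation, fell by 0.87 and 0.91.

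Several oxidative folding enzymes fell as well. PDIA4, a disulfide isomerase, had 1532 and 1221 in wild type and 449 and 459 in K11 (log2 -1.59 ± 0.18). PDIA6 went from 1187 and 1177 to 433 and 469.8, and PDIA3, which acts on glycoproteins, from 406 and 228 to 106 and 139.9. ERO1A, the oxidase that recharges these isomerases, went from 500.5 and 295 to 164 and 117. A wider list of 26 ER disulfide and prolyl isomerases, drawn up after the values were seen and sharing members with the first, had 12 falls and 1 rise among 24 tested (median -0.69), and 3 falls when wild type replicate 1 or 2 was left out. On the 8 shifted chromosomes lay 8 genes of this wider list, and with chromosomes centred it had 7 falls and 1 rise. TXNDC5 fell by 1.40 ± 0.19, ERP29 by 1.17 ± 0.19, ERP44, which retrieves unfinished proteins, by 1.00 ± 0.17 and the prolyl isomerase PPIB by 0.97 ± 0.14. FKBP9, another prolyl isomerase, on chromosome 2, went from 122 and 70.6 to below background at 2.53 and 3.31, at least 7.1-fold lower. FKBP7 rose by 1.49 ± 0.26. Members that did not pass included CANX, the lectin chaperone calnexin, with 626 and 553 against 652 and 622, and XBP1, a transcription factor of the unfolded protein response, with 1917 and 1859 against 2483 and 2002. CALR, calreticulin, had a log2 difference of -0.95 ± 0.28 (adjusted p = 0.068).

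Of the ER folding list 13 genes lay on the 8 shifted chromosomes; with each chromosome centred, 11 fell and none rose, and HSPA5, HSP90B1 and PDIA6 lay on chromosomes that were not shifted. The number lower was 5 when wild type replicate 1 or 2 was left out, 10 without K11 replicate 1 and 15 without K11 replicate 2, and relative to all genes the list's median was -0.61 on the deposited scale and -0.60 with arrays centred on their medians.

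Genes that bring proteins into the ER, attach glycans and carry cargo onward fell more often than they rose; these lists too were drawn up after the values were seen. Of 53 genes of ER entry and N-glycosylation, all tested, 13 fell and 3 rose (median -0.27). This list shared members with the ER folding list, among them SSR1 and SEC61G, which fell, and SEC62 and SSR3, which rose. SRP54, of the particle that recognises signal peptides, had 643 and 520.1 in wild type and 254 and 287 in K11, and its receptor SRPRA 379 and 365 against 195 and 222. SEC61G, a subunit of the translocation channel, went from 2518 and 2674 to 669 and 1409. The channel-associated SSR1 and TRAM1L1 fell by 1.27 ± 0.13 and 1.10 ± 0.14. The signal peptidase subunits SPCS2 and SEC11C fell by 1.02 ± 0.19 and 1.01 ± 0.18, the oligosaccharyltransferase subunit STT3B by 1.06 ± 0.21, and ALG2, ALG9 and ALG12, which build the glycan precursor, by 1.33, 1.18 and 0.87. Those that rose were SEC62 and SSR3, both on chromosome 9, by 0.74 and 0.66, and DPM1 by 0.69. Of 46 tested genes of 48 for transport between ER and Golgi, 9 fell and 2 rose. TMED3, a cargo receptor, fell by 1.87 ± 0.32, ERGIC1 by 1.01 ± 0.18 and the fusion protein BET1 by 1.01 ± 0.18, whereas the coat subunit COPA, on chromosome 25, rose by 0.86 ± 0.17 and TFG by 0.86 ± 0.16. With chromosomes centred the entry list had 9 falls and 0 rises, where 3 rises had an unadjusted p under 0.05, and the transport list 3 falls and 1 rise. Leaving out wild type replicate 1 or 2 left 2 falls in the entry list and 0 or 1 in the transport list, where 9 and 12 were lower at an unadjusted p under 0.05.

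Cholesterol synthesis genes fell and none rose. Of 27 tested genes of 29, 10 fell and none rose, with 0 higher also at an unadjusted p under 0.05 (median -0.46). The falls ran through the pathway. The early mevalonate enzymes MVK and PMVK went from 515 and 562 to 270.4 and 355 and from 312 and 254 to 110.0 and 151. FDFT1, which makes squalene, went from 1302 and 1175 to 375 and 702, and SQLE, which oxidizes it, from 3825 and 2941 to 805 and 1374. The later enzymes MSMO1, NSDHL and DHCR7 fell by 1.25 ± 0.21, 1.39 ± 0.31 and 1.01 ± 0.25, and STARD4, a cholesterol carrier, by 1.59 ± 0.22. K11 replicate 1 was the lower of the 2 K11 arrays in every gene of these named here. SREBF2, the transcription factor that drives the pathway, had 215 and 209 against 141 and 168 and did not pass (adjusted p = 0.238), and neither did FDPS at 778 and 682 against 330.3 and 885. Leaving out wild type replicate 1 or 2 left 2 or 5 falls; there were 7 without K11 replicate 1, 14 without K11 replicate 2 8 with chromosomes centred and 15 on the deposited scale.

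Fatty acid and phospholipid genes were mixed, with 5 of 37 tested lower and 2 higher (median -0.15). ACLY, which supplies cytosolic acetyl-CoA, went from 1107 and 664 to 248 and 466. SCD, the desaturase, and the elongases ELOVL6 and ELOVL7 fell by 1.61 ± 0.36, 0.97 ± 0.24 and 2.46 ± 0.51. FASN, fatty acid synthase, had 388 and 443 against 272 and 467, and the groups overlapped. PPARG, a nuclear receptor of lipid storage, rose from 34.9 and 7.72 to 179 and 114, and the elongase ELOVL1 rose by 0.83 ± 0.19. With chromosomes centred 2 were lower and 2 higher, and leaving out wild type replicate 1 or 2 left 0 or 1 falls, where 7 and 6 had an unadjusted p under 0.05, and leaving out K11 replicate 1 left 1.

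**Figure D3:**
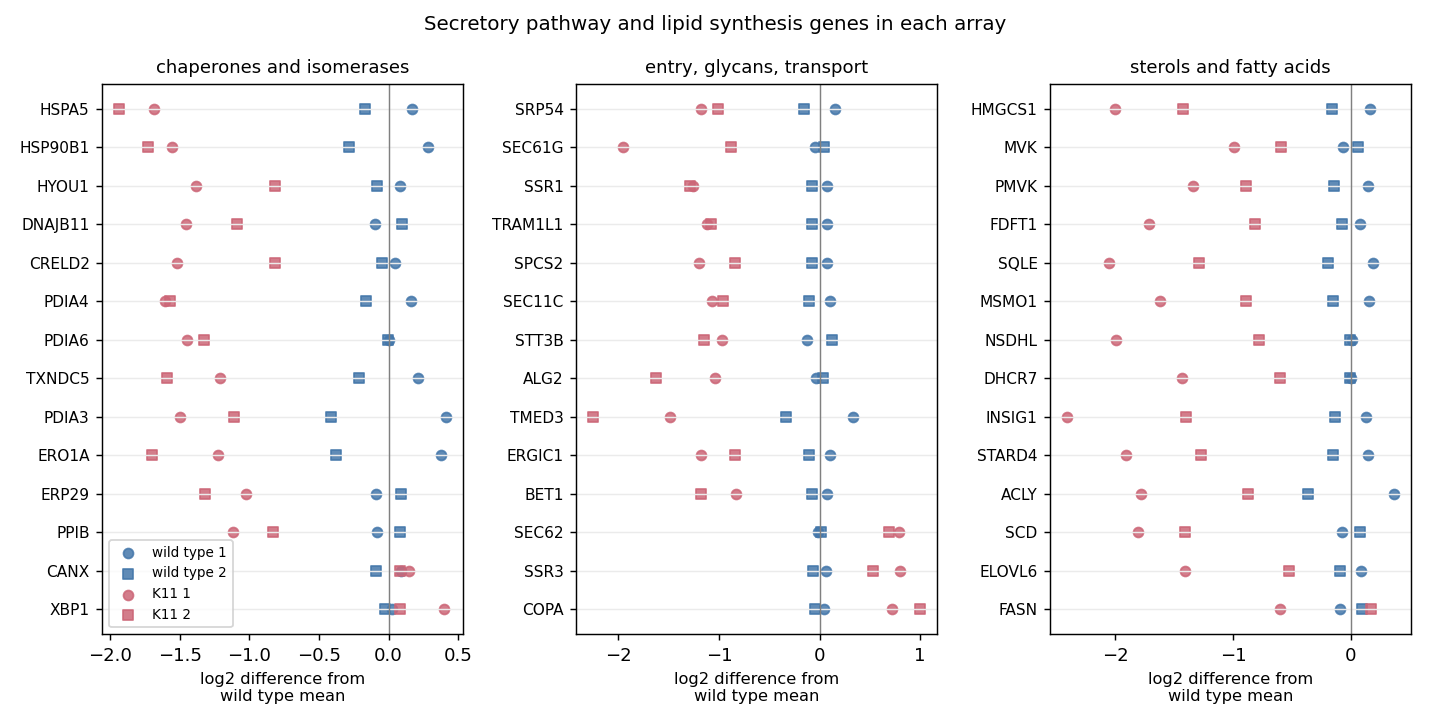
Log2 signal of each array minus the wild type mean of the same gene, for genes of ER folding, ER entry and transport, and lipid synthesis (circles and squares, replicates 1 and 2; wild type blue, K11 red). Most K11 points lie below 0, while CANX, XBP1, SEC62, SSR3 and COPA lie above 0 in both K11 arrays and FASN spans it.

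Heat shock proteins and mitochondrial genes also held falls. Of 42 tested heat shock proteins and cochaperones, 9 fell, including HSPA5, HSP90B1, DNAJB11 and DNAJB9 of the ER already named, and HSPA12A rose. The cytosolic HSPA8 went from 5074 and 5085 to 2499 and 3255 (log2 -0.83 ± 0.13), and its cochaperones DNAJA1, DNAJA4, DNAJB6 and BAG1 fell by 1.93, 1.25, 1.32 and 1.09. HSP90AA1, the inducible cytosolic HSP90, had 4519 and 4719.8 against 1626 and 3739.8 and did not pass. The falls numbered 2 when wild type replicate 1 or 2 was left out, 5 without K11 replicate 1, 16 without K11 replicate 2 and 6 with chromosomes centred.

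Of 65 tested genes of oxidative phosphorylation, 11 fell and 0 rose, with 1 higher at an unadjusted p under 0.05 (median -0.22). They came from several complexes: NDUFS6, NDUFA8 and NDUFB1 of complex I, SDHA of complex II, UQCR11 of complex III, and COX6C of complex IV. NDUFA4 and COX7A2L were also among the 11. UQCR11 went from 1968 and 1902 to 476 and 1010.2, and SDHA from 2175 and 1968 to 1245 and 1208. The copper chaperones COX17 and COX11 fell by 1.47 ± 0.23 and 1.07 ± 0.23. CYCS, cytochrome c, fell by 1.20 ± 0.16, from 3518 and 3238 to 1239.7 and 1731. TFAM, which packages and transcribes mitochondrial DNA, fell by 0.84 ± 0.17, and the citrate cycle enzyme FH by 0.82 ± 0.17. FH and SDHA were the 2 of 19 tested citrate cycle genes that fell, with 7 lower at an unadjusted p under 0.05. With chromosomes centred 0 of the 19 passed in either direction. Of 67 mitochondrial ribosome and import genes 8 fell and 4 rose, and with chromosomes centred 2 fell and 2 rose; leaving out wild type replicate 1 or 2 left 0 falls, where 12 and 9 were lower at an unadjusted p under 0.05, and leaving out K11 replicate 2 gave 14. Among the oxidative phosphorylation genes 14 lay on shifted chromosomes, and 7 fell with chromosomes centred. The count was 1 when wild type replicate 1 or 2 was left out, 8 without K11 replicate 1, with a median of -0.08, and 24 without K11 replicate 2.

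Antioxidant genes moved in both directions. GPX1, a glutathione peroxidase, went from 867 and 919 to 338 and 361, GSR, which regenerates glutathione, from 692 and 767 to 281 and 341, and HMOX1, heme oxygenase, from 95.6 and 109.9 to 15.7 and 17.7. PRDX4, the ER peroxiredoxin, PGD, of the pentose phosphate path, and the reductase AKR1A1 fell by 0.64, 0.69 and 1.23. NQO1, a quinone reductase on chromosome 11, rose instead, from 379.9 and 319 to 1085 and 1066 (log2 1.62 ± 0.15), and the sulfotransferase SULT1E1 from below background to 17.6 and 18.4, at least 1.5-fold. Of this list, 6 of 35 tested fell and 2 rose; with chromosomes centred 5 fell, and 1 fell when wild type replicate 1 or 2 was left out.

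Several genes of amino acid supply rose. Cells short of amino acids or under translational stress raise ATF4 targets, which include amino acid carriers, serine and folate enzymes and tRNA synthetases. Of 28 tested genes of this kind among 32, 7 rose and none fell, with 0 lower also at an unadjusted p under 0.05 (median 0.49). CEBPB, a transcription factor of stress and myeloid programs, went from 179 and 83.7 to 955 and 494 (log2 2.47 ± 0.37, adjusted p = 0.00505), and its partner CEBPG from 822 and 819.5 to 1716 and 1217. MTHFD2, a mitochondrial folate enzyme, went from 399 and 321 to 1225 and 822. SESN1, a sestrin that restrains mTORC1, went from 252 and 228 to 549 and 930.2. The amino acid carriers SLC7A5 and SLC38A1 rose by 1.28 ± 0.24 and 0.96 ± 0.17, and the alanine transaminase GPT2 by 1.62 ± 0.36. As in every probe set called higher, each K11 array exceeded both wild type arrays in these 7 genes. ATF4 itself had 1260.0 and 1234 against 1464 and 1604, ASNS, asparagine synthetase, 1006 and 899.9 against 1282 and 1205, and the serine enzyme PSAT1 366 and 259 against 302 and 254; these 3 did not pass.

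Of 20 cytosolic and mitochondrial tRNA synthetases, all tested, 4 rose. AARS1 went from 177 and 181 to 422 and 366, CARS from 465 and 389 to 968 and 792, QARS from 433 and 308 to 883 and 703 and KARS from 1699 and 1616 to 2528 and 2167. AARS1, KARS, CEBPG, GPT2 and SLC7A5 lie on chromosome 11 and MTHFD2 on chromosome 22, both shifted up; with chromosomes centred 4 of the amino acid list and 3 synthetases rose. Leaving out wild type replicate 1 left 5 amino acid genes, leaving out wild type replicate 2 left 1, and 11 passed without K11 replicate 2. Either omission left 0 synthetases, where 8 and 6 were higher at an unadjusted p under 0.05. In the deposited values 3 amino acid genes and 0 synthetases were higher, with 1 synthetase at an unadjusted p under 0.05 and 2 lower past the threshold, KARS had a log2 difference of -0.02, and the medians relative to all genes were 0.41 and 0.16.

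Cytoskeleton and adhesion genes rose more often than they fell. Of 61 tested among 73, 11 rose and 3 fell (median 0.19). The rises included STMN2, a microtubule gene described with the neuronal markers below, and the falls a tubulin gene. COTL1, a coactosin-like actin-binding protein, went from 55.3 and 55.2 to 497 and 462 (log2 3.07 ± 0.26, adjusted p = 0.000559). LCP1, the plastin that bundles actin in leukocytes, went from 18.8 and 10.9 to 129.6 and 140.1 at its brightest probe set and at least 5.56-fold up at another. ACTN2, an alpha-actinin, went from 59.2 and 64.9 to 230.2 and 227, and ZYX, zyxin of focal adhesions, from 86.8 and 73.4 to 208 and 291. EZR and MSN, which tie actin to the membrane, rose by 1.07 ± 0.18 and 0.77 ± 0.19. ACTR2, of the complex that branches actin, rose by 0.70 ± 0.17. The leukocyte myosin MYO1F rose at least 2.24-fold, whereas its relative MYO1E, on chromosome 10, fell from 67.98 and 71.03 to 12.2 and 12.9. Integrins also parted, with ITGA6 and ITGB3 up by 1.40 ± 0.23 and 1.76 ± 0.42 and ITGB1, on chromosome 2, down by 0.71 ± 0.18. ACTB, beta-actin, had 4075 and 4119 against 2632 and 4607, and the groups overlapped. Leaving out wild type replicate 1 or 2 left 6 or 4 rises, and with chromosomes centred 9 rose and 1 fell; the deposited values gave 7 rises and 10 falls.

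Some immune signalling genes rose, while most of those tested did not pass. NFKB1, an NF-kB subunit, had 129 and 129 in wild type and 319 and 308 in K11 (log2 1.27 ± 0.19, adjusted p = 0.00505), and its inhibitor and target NFKBIA 103 and 113 against 204 and 184. DUSP5 and SPRY2, which damp ERK signalling, rose by 1.38 ± 0.30 and 2.31 ± 0.46. These were the 4 of 27 tested NF-kB and immediate early genes that rose, and none fell, with 1 lower at an unadjusted p under 0.05. Of the receptors upstream, TLR2A went from 20.6 and 17.05 to 103 and 109.8 and TLR7 from 47.5 and 69.2 to 136 and 191, the 2 of 20 tested innate sensing genes that rose. In the B cell receptor chain 5 of 33 rose and 2 fell. PIK3AP1, an adaptor for PI3 kinase, went from 188 and 289 to 481 and 663, and PIK3CD, its leukocyte catalytic subunit, from 178 and 154 to 397 and 339. PTPN6, an inhibitory phosphatase, rose by 1.16 ± 0.28, and NFATC3, a calcium-driven transcription factor on chromosome 11, by 1.11 ± 0.16; ORAI1, the calcium channel pore, fell by 1.01 ± 0.22. The core kinases BTK, with 547 and 707 against 573 and 666, and SYK, with 377 and 472 against 410.1 and 644, did not pass. When wild type replicate 1 or 2 was left out the NF-kB count was 0, while 9 and 6 genes were higher at an unadjusted p under 0.05, and the receptor chain had 1 higher, and 2 without K11 replicate 1, with 0 lower in each of these 3 cases, where 4, 2 and 3 were lower at an unadjusted p under 0.05. The deposited values gave 1 rise in the NF-kB list and 1 in the receptor chain. With chromosomes centred the NF-kB list had 4 rises, innate sensing 2, and the receptor chain had 3 rises and 2 falls. The innate sensing count was 1 and 0 when wild type replicate 1 or 2 was left out, where 3 and 2 were higher at an unadjusted p under 0.05.

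Of 29 tested lymphocyte surface proteins 2 rose and 3 fell; there was 1 rise when either wild type or either K11 array was left out, and 0 falls without wild type replicate 2, where 4 were lower at an unadjusted p under 0.05. CD74, the class II invariant chain, went from 1022 and 1241 to 5335 and 5009, and IGLL1, the annotation's name for an immunoglobulin light chain, from 1354 and 1214 to 4719.8 and 5409. VPREB3, a surrogate light chain protein, went from 254 and 576 to 87.99 and 121, and CD200, an inhibitory ligand, was at least 4.62-fold lower. Of the immunoglobulin diversification and repair list, 4 of 37 rose and 0 fell, with 3 lower at an unadjusted p under 0.05. UNG, which removes uracil from DNA, went from 563 and 765 to 1336 and 1163 and BRCA1 from 255 and 276 to 480.1 and 589. When wild type replicate 1 or 2 was left out this count was 0, while 6 and 5 genes were higher at an unadjusted p under 0.05. Of 20 tested cytokine genes 0 rose, with 1 higher at an unadjusted p under 0.05, and 2 fell, IL16 by 1.70 ± 0.39 and LITAF, which regulates TNF, by 3.38 ± 0.64, from 1695 and 1729.6 to 114 and 231. With chromosomes centred the surface proteins had 3 rises and 3 falls, the diversification list 3 rises and the cytokines 1 fall. The count of cytokine falls was 0 when wild type replicate 1 or 2 was left out, where 4 and 3 were lower at an unadjusted p under 0.05.

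Some genes typical of phagocytes rose. Of 20 tested genes of the phagocyte oxidase and of eicosanoid synthesis, a list drawn up after the values were seen, 5 rose and 2 fell. NCF4, an oxidase subunit, went from 82.7 and 117 to 881 and 589 (log2 2.85 ± 0.25). PLA2G4A, which releases arachidonic acid, went from 16.5 and 7.12 to 85.1 and 43.7. PTGS2, cyclooxygenase 2, was at least 2.32-fold higher, and HPGDS, prostaglandin D synthase, went from 173 and 32.3 to 599.9 and 318, with the wild type arrays far apart. CYBB, the catalytic oxidase subunit, had 2.78 and 10.4 against 67.6 and 56.3 and did not pass (adjusted p = 0.103). When wild type replicate 1 or 2 was left out 3 or 2 rose, and without K11 replicate 1 only 1 did, with 0 falls in each case, where 2, 2 and 5 were lower at an unadjusted p under 0.05. With chromosomes centred 3 rose and 0 fell, where 3 were lower at an unadjusted p under 0.05. Of 12 myeloid markers 9 were tested, CEBPB and TLR2A rose, and 3 were at or below background in all 6 arrays. CEBPB was already counted with the amino acid genes and TLR2A with innate sensing. The summed signal of the 12 was 407 and 436 in wild type and 1494 and 1093 in K11. CEBPB alone made up 179 and 83.7 of it in wild type and 955 and 494 in K11. The part of the summed signal in the result was not tested. The list's median of 0.81 became 0.22 or 1.87 when wild type replicate 1 or 2 was left out. The defining markers CSF3R and LYZ stayed below background in all 6 arrays, and CSF1R had 25.4 and 31.7 in wild type and 28.01 and 49.9 in K11.

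**Figure D4:**
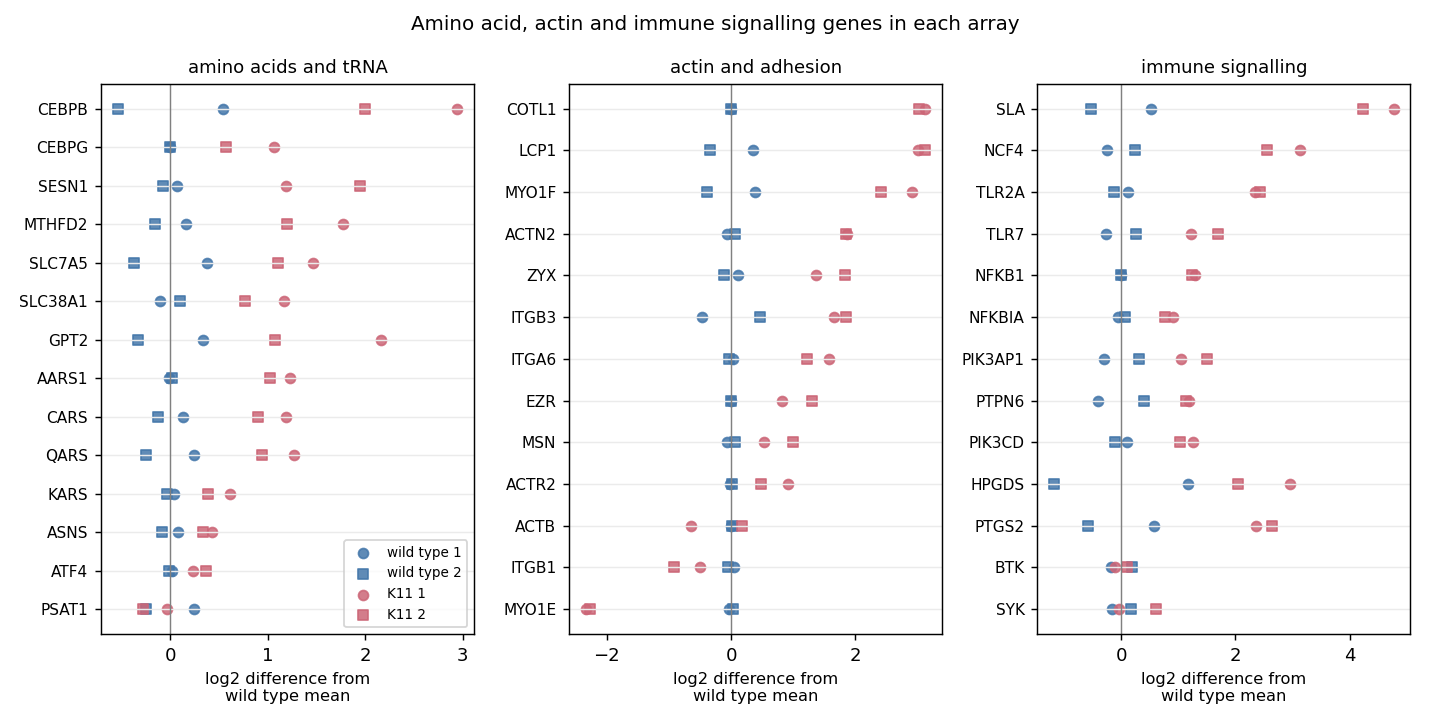
Log2 signal of each array minus the wild type mean of the same gene, for amino acid and tRNA genes, actin and adhesion genes, and immune signalling genes (circles and squares, replicates 1 and 2; wild type blue, K11 red). Most K11 points lie above 0, PSAT1, ITGB1 and MYO1E lie below it in both K11 arrays, and ACTB, BTK and SYK span it.

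A few genes best known from neurons rose, some of them from near background. DCX, a microtubule protein of migrating neurons, had 4.23 and 6.55 in wild type and 159.6 and 257 in K11, at least 15.3-fold higher (adjusted p = 0.000862). GPM6A, a neuronal membrane glycoprotein, had 5.17 and 0.584 against 91.5 and 207 at 1 probe set, at least 10.5-fold higher. At its brightest probe set it had 3.75 and 14.3 against 153 and 316, with wild type replicate 2 above background. STMN2, a stathmin that destabilises microtubules, was bright in both groups, at 1451 and 1480.0 against 3355 and 3518. These were the 3 of 15 tested neuronal markers, among 24, that rose, and STMN2 was already counted with the cytoskeleton and adhesion genes. In contrast SNAP25 stayed below background in all 6 arrays, MAP2 had 78.9 and 93.2 in wild type and 49.7 and 53.8 in K11, and the median signal of the list was 5.91 and 6.61 in wild type and 12.2 and 7.36 in K11. NAV3, a neuron navigator gene, rose at least 3.85-fold. Of 40 tested ion channel genes 3 (7.5%) rose and 1 (2.5%) fell, and with chromosomes centred 2 rose and 1 fell. TRPC1, on chromosome 9, went from 92 and 115 to 386 and 925 and ANO5 from 46.2 and 24.3 to 177 and 152. KCNMB1 fell from 308 and 182 to 55.9 and 43.6. Of 60 tested developmental signalling genes 3 (5%) rose and 2 (3.33%) fell, no more than the shares over all genes. With chromosomes centred 1 rose and 0 fell. DKK3, a Wnt antagonist relative, rose from 33.5 and 65.8 to 189.6 and 329.7. HEY1, a Notch target, fell from 54.5 and 54.2 to 13.2 and 2.42.

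Among chromatin genes, some of those listed for the ring complexes that shape chromosomes rose. Of 19 genes of cohesin, condensin and CTCF, 5 rose and 0 fell, with 1 lower at an unadjusted p under 0.05 (median 0.35). WAPL, which releases cohesin from DNA, went from 292 and 309 to 616 and 647, the cohesin ATPase SMC3 from 287 and 414 to 634 and 643, the condensin ATPases SMC4 and SMC2 from 574 and 619 to 1479 and 1035 and from 1326 and 1318 to 1906 and 1839, and the insulator protein CTCF from 244 and 285 to 393 and 579. SMC4 lies on chromosome 9 and CTCF on 11. With chromosomes centred 3 rose, and leaving out wild type replicate 1 or 2 left 0, where 5 and 6 were higher at an unadjusted p under 0.05; 3 rose without K11 replicate 1 and without either K11-5 array. In the deposited values 0 were higher and 2 lower past the threshold, with 2 higher at an unadjusted p under 0.05, SMC2 had -0.06, and the list's median relative to all genes was 0.26. Of 26 tested acetyltransferases and deacetylases 3 rose and 2 fell; leaving out wild type replicate 1 left 0 of either, where 3 and 2 had an unadjusted p under 0.05, leaving out wild type replicate 2 left 1 rise and leaving out K11 replicate 1 left 2 rises, and with chromosomes centred 3 rose and 1 fell. The acetyltransferases KAT6A, EP300 and KAT7 rose by 1.26 ± 0.17, 1.27 ± 0.22 and 0.81 ± 0.19, and the deacetylases HDAC8 and SIRT5 fell by 0.87 ± 0.19 and 0.99 ± 0.24. Of 21 tested heterochromatin and DNA methylation genes 0 rose and 2 fell, with 2 higher at an unadjusted p under 0.05. With chromosomes centred 1 of them fell. CBX3, a heterochromatin protein, fell by 0.70 ± 0.17 and SETDB2, of a methyltransferase family, by 0.99 ± 0.21. Of 25 tested histone variants and chaperones 2 (8%) rose and 0 fell, and with chromosomes centred 1 rose. The variant histone H2AZ2 rose by 0.87 ± 0.18 and the chaperone RBBP4 by 0.58 ± 0.14. Of 16 tested polycomb genes 0 passed in limma, with 1 higher and 0 lower at an unadjusted p under 0.05. With chromosomes centred 1 of the 16 rose and 0 fell.

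Genes of survival and of the cell cycle changed in both directions. Of 41 tested genes of apoptosis 7 fell and 5 rose, and the falls included CYCS, already counted with oxidative phosphorylation. The protective BCL2L1 went from 341 and 464 to 69.9 and 156, BCL2 from 152 and 113 to 31.6 and 12 and BCL2L10 from 1122 and 1079 to 559 and 458, while BAK1, a pore-forming killer of the same family, went from 68.8 and 76.6 to 25.96 and 27.2. CASP8, the caspase of death receptors, and BIRC2, an inhibitor of apoptosis, rose by 1.00 ± 0.21 and 0.88 ± 0.23. Among 37 tested cell cycle control genes 5 rose and 5 fell, and the rises included SESN1, already counted with the amino acid genes. CCNG2, a cyclin of arrested cells, went from 257 and 286 to 1259 and 821, CDKN1B, the inhibitor p27, from 99.7 and 113 to 279.7 and 229 and the pocket protein RBL1 from 671 and 873 to 1510.5 and 1323. On the other side E2F5 went from 906 and 1028 to 419 and 307, and CCND1 and CDK6, which drive entry into the cycle, fell by 0.75 ± 0.18 and 0.92 ± 0.23. Among nucleotide genes PRPS2, which makes the ribose donor of nucleotides, rose from 197 and 140.2 to 1003 and 583, and the mitochondrial thymidine kinase TK2, on chromosome 11, from 162 and 227 to 563 and 718. With chromosomes centred 4 apoptosis genes fell and 2 rose, and 1 cell cycle gene fell and 5 rose; leaving out wild type replicate 1 or 2 left 1 apoptosis fall, 1 or 0 apoptosis rises, 2 cell cycle rises and 1 or 0 cell cycle falls, where at an unadjusted p under 0.05 there were 5 apoptosis rises and 5 cell cycle falls without wild type replicate 2.

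Other large groups were counted in the same way. Of 60 tested ribosomal proteins 1 rose and 1 fell (median 0.05), and of 57 ribosome biogenesis genes 2 rose and 2 fell. Of 62 mitosis genes 3 rose and 2 fell, with 4 rises and 0 falls with chromosomes centred. Of 53 replication genes 2 rose and 5 (9.43%) fell, among them RPA3 and GMNN on chromosome 2, by 0.84 and 0.68. With chromosomes centred 1 fell, and none did when wild type replicate 1 or 2 was left out, where 5 and 6 were lower at an unadjusted p under 0.05. Of 55 lysosome genes GABARAPL2 rose and CTSD fell. Of 40 tested homeobox and developmental regulators among 102, 0 passed in limma, with 2 higher and 1 lower at an unadjusted p under 0.05 and a median of 0.35. With chromosomes centred 2 of the 40 rose and 0 fell. Of 14 tested germline genes 0 passed, with 4 higher and 1 lower at an unadjusted p under 0.05 and a median of 0.80. Another probe set of 1 of these genes passed as a rise, at 5.30 and 15.3 in wild type and 45.4 and 51.3 in K11. Among 24 germline markers, 4 were above background in both wild type arrays and 10 in both K11 arrays.

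**Figure D5:**
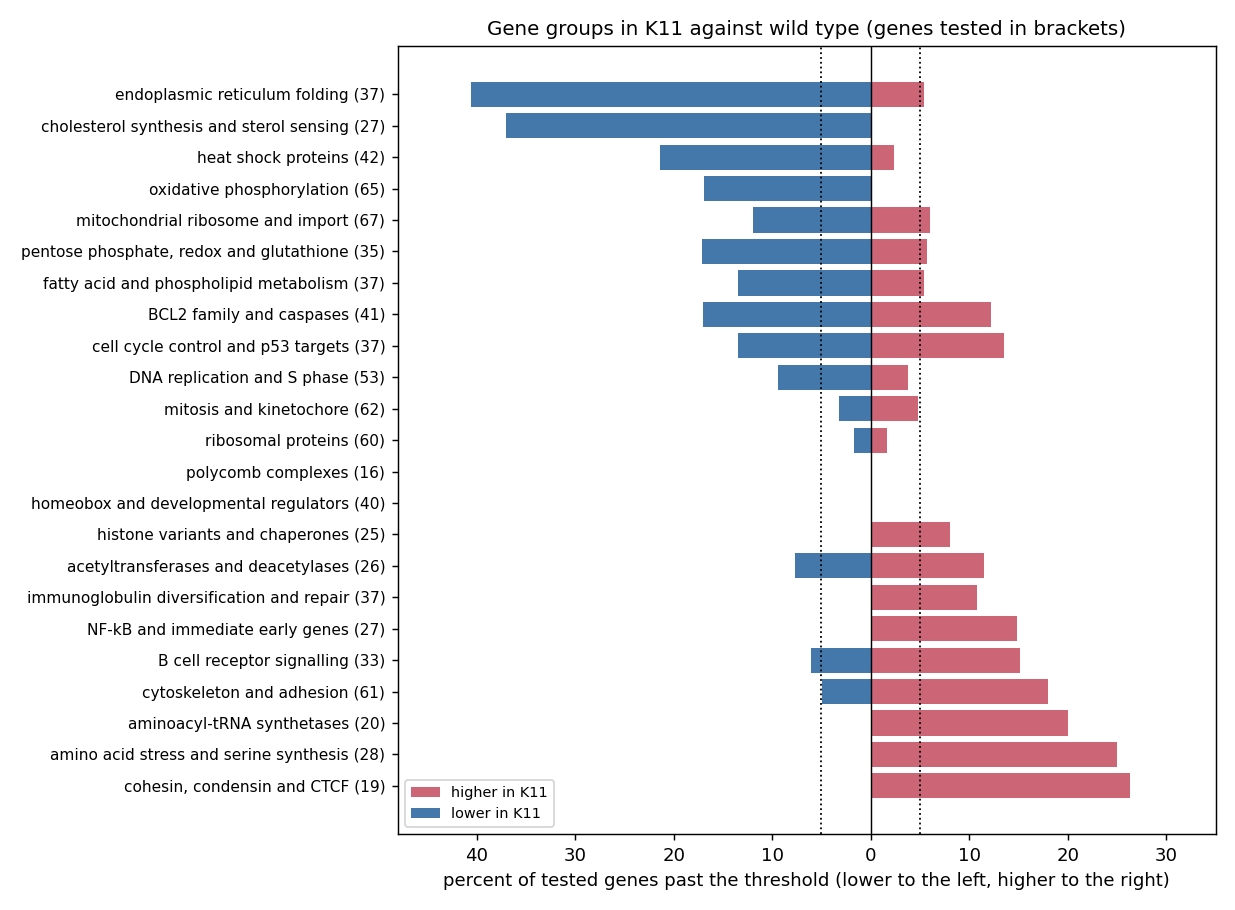
Percent of the tested genes past the threshold for the gene groups shown, which leave out the 4 lists drawn up after the values were seen, lower in K11 to the left and higher to the right, with the number tested in brackets. The dotted lines mark the shares over all genes, 5.08% lower and 5.03% higher; among the groups drawn, ER folding and cholesterol synthesis reach furthest left, and cohesin, condensin and CTCF and the amino acid group furthest right.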

How the data were processed

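The deposited values were linear intensities of 38535 probe sets on 6 Affymetrix chicken arrays (wild type, K11 and K11-5, 2 each) of total RNA, made by the authors with GCOS, per the submitters' processing notes. The sources used here give no version, algorithm or scaling. After removal of 96 control and 57 reporter probe sets, 38382 were quantile normalized between arrays and log2(value + 2) was taken. Those whose mean log2 value reached the 40th percentile, 23029 in number, were tested with limma 3.58.1 in R 4.3.3 (3 group means over all 6 arrays, eBayes with an intensity trend, 3 residual and 6.95 prior degrees of freedom), with Benjamini-Hochberg adjustment and a threshold of 0.05. Because of the added 2, the folds of dim genes are understated. Genes were named from GEO's platform annotation and RefSeq: 27168 probe sets had 1 symbol, 177 several and 11037 none, and 26853 matched RefSeq. Current symbols, chromosome names and the gene starts used for the 20 Mb windows came from RefSeq. No coordinates are printed, since the arrays' build is not named. A gene was represented by its brightest tested probe set. In "at least" folds, background stood in for the arrays under it.

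Genes named in the text were linker histones, the 15 largest rises and falls, list members past the threshold, the strongest or brightest other members, the 10 brightest genes detected in 1 group only, and cell type markers. A few other tested members were named after their values were seen. The lists and genes were chosen with earlier results of these data known. On simulated data with 100 probe sets changed by 1 and 100 by 2 on the log2 scale, 19% and 66% were recovered for K11 against wild type, with 5 false calls. Fewer probe sets were changed there than the 1763 called in the data, which makes the adjusted threshold stricter. The shares recovered may therefore be too low for the data. The number of arrays limits the precision. Alternatives were other scalings, added values, filters, groups in the fit, a replicate block, limma without the trend, leaving out each array and, added after seeing the data, centring each chromosome.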

Additional observations from a re-analysis of the deposited data

Results flagged for a closer look

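The arrays carry 57 reporter probe sets for sequences that are not chicken genes, such as selection markers, which entered no comparison. In 6 of them the deposited K11 signal was above every wild type value and above background, and they are given for that reason. The brightest had a mean of 1888 in K11 (arrays at 2231 and 1545), where the wild type arrays had 0.893 and 0.469. The others had K11 means of 742 (971 and 514), 731 (695 and 767), 381 (510.1 and 252), 107 (143 and 69.9) and 101 (76.3 and 127), and no wild type array exceeded 10.0 in any of the 6. K11-5 was also high in 5 of these, and in the one with a K11 mean of 101 it had 0.598 and 1.35. The sources used here do not name the constructs in the cells.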

How the results depend on the processing

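The counts of probe sets depended on the variance model, the scaling and single arrays. With arrays centred on their medians 461 probe sets were higher and 2859 lower, on the deposited scale 309 and 2615, and with chromosomes centred 510 were lower. Leaving out 1 array gave 159 to 1019 higher and 80 to 1239 lower. limma without the intensity trend gave 0 in each direction, with 1995 higher and 2199 lower at an unadjusted p under 0.05, and 0 for each of the gene groups that follow, with unadjusted counts of 3 to 18. With arrays centred on their medians and on the deposited scale, heat shock falls were 22 and 21, oxidative phosphorylation falls 31 and 40, amino acid rises 3 and 3, tRNA synthetase rises 0 and 0 (2 and 1 at an unadjusted p under 0.05) and cohesin, condensin and CTCF rises 1 and 0. Cholesterol falls were 16 with arrays centred on their medians; NF-kB rises were 1 and cytoskeleton rises 7 on the deposited scale. With chromosomes centred there were 3 cohesin and 4 amino acid rises and 7 oxidative phosphorylation falls. Cohesin rises were 3 with only wild type and K11 arrays in the fit, and synthetase rises 2 with no filter. Leaving out 1 array gave 0 to 5 cohesin, 0 to 5 NF-kB, 0 to 5 synthetase, 1 to 11 amino acid and 4 to 11 cytoskeleton rises, and 2 to 14 cholesterol, 2 to 16 heat shock, 5 to 15 ER folding and 1 to 24 oxidative phosphorylation falls. Of 270 named genes, 242 passed as reported; those no longer past the threshold numbered 242 in limma without the intensity trend, 184 and 183 without wild type replicates 1 and 2, 91 without K11 replicate 1 and 93 with chromosomes centred. KARS, RFC4 and SMC2 changed sign on the deposited scale, to -0.016, -0.039 and -0.062, where the median of all probe sets was -0.32. The cause was not tested, except that leaving out an array leaves fewer samples. Replicate numbers did not pair the arrays (the deviations of same-numbered arrays correlated at 0.059); with the replicate block 846 probe sets were higher and 842 lower, and among the groups 5 NF-kB, 9 amino acid, 4 synthetase, 5 cohesin and 12 cytoskeleton genes rose and 10 cholesterol, 16 ER folding, 8 heat shock and 11 oxidative phosphorylation genes fell. At the observed spread changes of 1 on the log2 scale were mostly missed in simulation, which changed fewer probe sets than were called here. Its adjusted threshold was therefore stricter, and the share missed may be overstated. A gene that did not pass is still not shown to be unchanged.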
